A study of Mus musculus with 24 samples.

Results

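The genes described here are those of mouse chromosome 10 that had at least 100 allelic counts, maternal and paternal together, pooled over the 2 Abl.1 libraries and also over the 2 first-run Abl.2 libraries. Of 1392 chromosome 10 genes in the count table, 744 had a count in any of these 4 libraries and 427 were members, after Btg1 and Plagl1 had been left out by name. A further 40 genes reached 100 counts in Abl.1 alone and 53 in Abl.2 alone. The chromosome was chosen because its allelic imbalance had been seen to shift in Abl.2, so every value that compares the 2 clones was selected on measured values of these libraries. Such values are given as a description, and where counts of calls between the clones are printed, nothing is read from them. Allelic imbalance (AI) is the share of a gene's allelic counts that lies in the maternal column, so that 0.5 stands for equal counts and 0.333 for 2 paternal counts to 1 maternal count.

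Abl.1 and Abl.2 are clonal lines of immortalised B cells from a female 129S1/SvImJ x CAST/EiJ F1 background, transformed with the Abelson virus and grown in plain growth medium without drug. Each line is 1 clone, each was sequenced from 2 SMARTseq library preparations of 10 ng RNA, and the 2 Abl.2 libraries were also sequenced in a second run. The replicates are library preparations, so the spread between them is technical. Kidney RNA of 1 adult female of the same kind of cross, in 3 sets of 6 libraries (NEBNext 100 ng, SMARTseq 10 ng and SMARTseq 100 pg), gave the AI of the same genes in a tissue that the choice of members did not use. Total allelic counts were 19213150 and 22241719 in the Abl.1 libraries, 21359132 and 22166627 in the first-run Abl.2 libraries and between 6138693 and 6702351 in the kidney libraries. All 14 B lineage markers examined had counts in both clones. They summed to between 13442 and 14754 for every 1000000 counts in each library, whereas 7 T lineage markers summed to at most 16.6. The lowest B lineage marker, Pax5, had 0.885 and 1.48 in Abl.1 and 2.11 and 2.39 in Abl.2. Rag2 had 1.35 and 2.43 against 16.2 and 17.9, and the next, Rag1, had 21.9 or more. Of the T lineage markers, Lck had 9.78 and 13.9 against 5.06 and 3.38. The 8 kidney epithelium markers summed to 0 in both Abl.1 libraries and to 14.3 and 10.6 in Abl.2, with Umod at 8.15 and 9.02 and Slc34a1 at 5.67 and 1.31, and the part of other RNA in the results was not tested. Of the 6 myeloid markers, Lyz2, itself a member, had 133 and 132 in Abl.1 and 298 and 308 in Abl.2, whereas Csf1r had 21.4 and 51.2 against 0 and 0.180, Itgam 10.8 and 8.36 against 0.890 and 0.677, and the others at most 0.416.

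In a diploid F1 cell each autosomal gene has a maternal and a paternal copy, and the single-nucleotide differences between the parental strains tell their transcripts apart. A change in the number of copies of a chromosome alters the dose of every gene on it and of only the parental allele that was gained or lost, so that a chromosome with an additional paternal copy would carry its alleles in a 2:1 ratio. Clonal cells also differ gene by gene, because some autosomal genes are expressed from only 1 allele, fixed in a clone and inherited by its daughter cells. Chromosome 10 of the mouse holds, among others, Myb and Tcf3, transcription factors of early lymphoid cells, Vpreb3, a protein of the pre-B cell receptor pathway, Cdk1, Cdk2 and Cdk4, kinases of the cell cycle, and Mdm2, the ubiquitin ligase that acts on p53.

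The promoters of 4 genes that recur below are printed to show the sequence at the start of genes whose allele ratio did not follow 2:1. They are, on either side of that ratio, the 2 genes with the most counts among the 6 farthest members with at least 500 counts in each clone and a single promoter in the table. Each is the 300 bases from 250 before to 50 after the annotated start, from RefSeq on GRCm38.p6, and capitals mark the CG dinucleotides, the sites of DNA methylation. By symbol, 352 of 427 members matched a promoter in that table.
Ifngr1, chr10:19591699-19591998, plus strand: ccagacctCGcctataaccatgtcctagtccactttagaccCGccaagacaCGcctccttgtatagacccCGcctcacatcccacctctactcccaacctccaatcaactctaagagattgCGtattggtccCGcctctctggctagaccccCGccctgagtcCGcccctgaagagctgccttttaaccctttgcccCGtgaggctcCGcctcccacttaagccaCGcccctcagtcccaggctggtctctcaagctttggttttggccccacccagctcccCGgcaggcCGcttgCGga
Lyz2, chr10:117282223-117282522, minus strand: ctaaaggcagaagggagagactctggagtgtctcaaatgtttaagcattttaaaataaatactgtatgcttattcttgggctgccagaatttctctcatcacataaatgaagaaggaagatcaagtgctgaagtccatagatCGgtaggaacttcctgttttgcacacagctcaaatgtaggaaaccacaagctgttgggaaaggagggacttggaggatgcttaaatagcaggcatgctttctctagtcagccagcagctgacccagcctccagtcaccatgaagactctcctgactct
Plpp2, chr10:79533738-79534037, minus strand: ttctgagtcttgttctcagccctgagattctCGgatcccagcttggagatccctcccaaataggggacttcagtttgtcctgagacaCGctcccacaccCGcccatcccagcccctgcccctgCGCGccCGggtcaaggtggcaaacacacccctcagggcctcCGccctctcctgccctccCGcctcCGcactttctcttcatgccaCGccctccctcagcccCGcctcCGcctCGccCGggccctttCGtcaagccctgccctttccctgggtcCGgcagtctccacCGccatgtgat
Agpat3, chr10:78351651-78351950, minus strand: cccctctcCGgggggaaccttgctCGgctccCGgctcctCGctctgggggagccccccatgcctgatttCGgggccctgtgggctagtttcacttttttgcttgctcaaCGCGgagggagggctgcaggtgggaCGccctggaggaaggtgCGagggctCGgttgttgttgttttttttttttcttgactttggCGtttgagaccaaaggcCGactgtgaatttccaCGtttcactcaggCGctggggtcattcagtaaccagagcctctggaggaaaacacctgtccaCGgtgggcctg
CG occurred 14 times at Ifngr1, 1 time at Lyz2, 17 times at Plpp2 and 15 times at Agpat3. Of all 32851 promoters of this length, 36.3% held at least as many CG as Ifngr1, 94.6% as many as Lyz2, 31.4% as many as Plpp2 and 34.6% as many as Agpat3. The median was 22 CG over the 447 promoters of members and 7 over all promoters, so that all 4 lay below the median of members. Among the other far members, Chst11 had 34 and Palm 29, above that median. Below it were Prmt2 with 20, Slc29a3 with 18, and Stx7 (9 and 12) and Tjp3 (3 and 9) with 2 promoters each.

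The members' maternal share was lower in Abl.2. The median AI of members per library was 0.502 ± 0.00472 (SD, n = 2) in Abl.1, 0.341 ± 0.00167 (SD, n = 2) in Abl.2 and 0.338 ± 0.00456 (SD, n = 2) in the second run of the Abl.2 libraries. Library by library, it was 0.498 and 0.505 in Abl.1 and 0.340 and 0.342 in Abl.2, and these ranges did not overlap. Genes of the reference autosomes, which are all autosomes except 4, 5, 7, 10, 11 and 18, had medians between 0.499 and 0.504 in the same libraries. With pooled counts, 392 of 427 members had a lower AI in Abl.2 than in Abl.1, against 2574 of 5280 genes of the reference autosomes with the same minimum of counts.

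**Figure D1:**
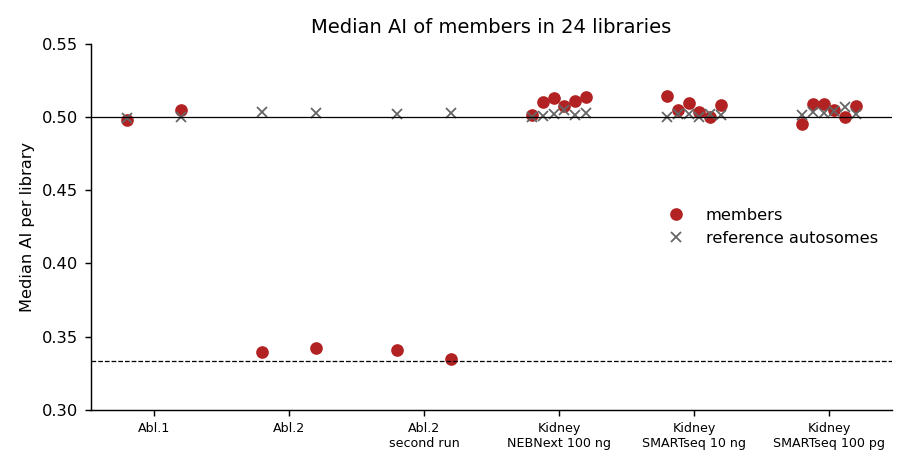
Median AI in each of 24 libraries for the chromosome 10 members (red points) and for genes of the reference autosomes (grey crosses). The vertical axis is AI on a linear scale that starts at 0.3, and the lines mark 0.5 (solid) and 0.333 (dashed). The Abl.2 libraries of both runs lie between 0.335 and 0.342 for members, and the kidney libraries between 0.495 and 0.514.

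The 2-sample proportional test that corrects counts for the spread between libraries (the quality correction coefficient, QCC) called a different AI for 217 of 427 members, 207 of them with the lower AI in Abl.2. Over all 10068 genes tested, 18.7% were called and 7.92% were called with the lower AI in Abl.2. The choice of chromosome used this contrast, and the counts are given only as a description. The AI of the 2 libraries of one clone did not overlap that of the other clone in 383 of 427 members (89.7%). In 361 members (84.5%) it did not overlap and was lower in Abl.2. In the reference autosomes the same held for 2890 of 5280 genes (54.7%) and for 1380 (26.1%). With 2 libraries per clone, values that do not overlap were thus common in other genes too.

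The shift ran along the whole chromosome. In windows of 10 Mb, the median AI of members in Abl.1 lay between 0.475 and 0.531 over the 13 windows that held more than 1 member, and in Abl.2 between 0.296 and 0.366. The window from 0 to 10 Mb had medians of 0.504 and 0.338 (20 genes), that from 70 to 80 Mb 0.503 and 0.337 (63 genes) and that from 120 to 130 Mb 0.513 and 0.337 (57 genes). All 57 members of this last window had the lower AI in Abl.2, and in the window from 70 to 80 Mb 54 of 63 did. The window past 130 Mb held only Tespa1, a gene of lymphocyte receptor signalling, with AI 0.930 in Abl.1 and 0.531 in Abl.2.

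**Figure D2:**
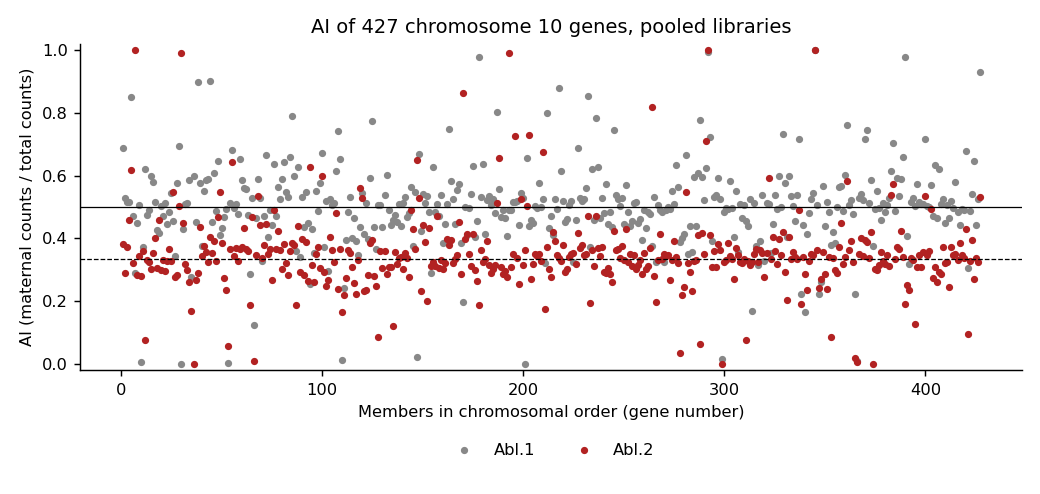
AI (vertical axis) of each of the 427 members, numbered by their order along the chromosome (horizontal axis), from pooled counts of Abl.1 (grey) and Abl.2 (red). The solid line marks 0.5 and the dashed line 0.333. The Abl.2 points follow the dashed line from the first to the last gene, with single genes far above or below it.

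The counts of each allele were then scaled to the summed counts of the reference autosomes. On this scale the median reference gene itself was 0.39 higher (log2 of total counts) in Abl.2, and the fold levels and log2 ratios of counts below are relative to it. The paternal counts of members were higher in Abl.2 by a median of 1.02 (log2, interquartile range 0.26 to 1.64), a 2.03-fold level. Their maternal counts differed by a median of 0.05 (interquartile range -0.70 to 0.69), a 1.04-fold level, and the total by 0.66, a 1.57-fold level. Over the 4 pairs of an Abl.1 and an Abl.2 library the paternal median lay between 0.94 and 1.05 (SD 0.04) and the maternal median between 0.03 and 0.06 (SD 0.01). The same medians over 5280 genes of the reference autosomes were -0.02 for paternal and 0.01 for maternal counts.

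**Figure D3:**
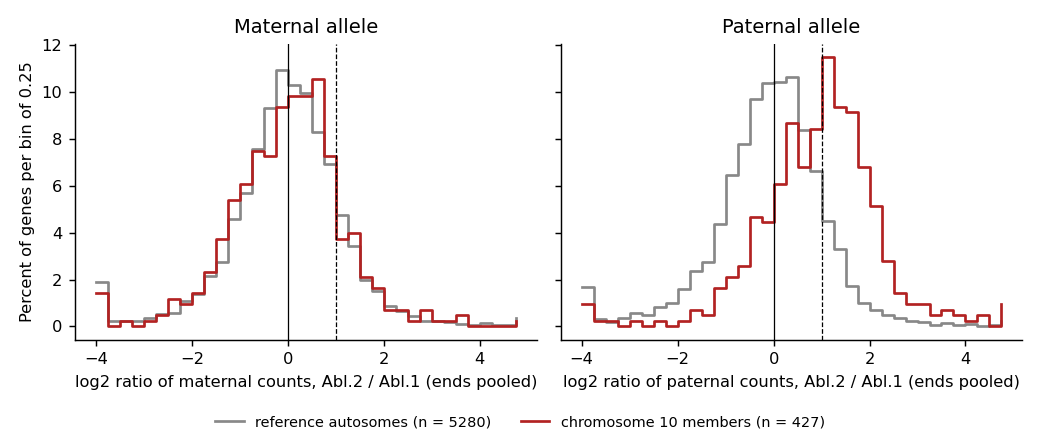
Distribution of the log2 ratio of maternal counts (left) and paternal counts (right), Abl.2 over Abl.1, for the 427 members (red) and 5280 genes of the reference autosomes (grey), as percent of genes per bin, with values beyond the ends of the axis pooled in the last bins. The solid line marks no change and the dashed line a doubling. The maternal curves nearly coincide, with medians of 0.05 and 0.01, and the paternal curve of the members is moved to the right, with a median of 1.02.

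Total abundance, tested with edgeR's quasi-likelihood test on summed allelic counts, was called higher in Abl.2 for 247 members and lower for 31, against 32.2% of all 10068 genes called higher and 13.6% called lower. These calls take the reference autosomes as library size, on which the median reference gene is itself 0.38 higher. With TMM, which sets that median at 0.02, 197 members were higher and 47 lower, against 21.3% and 21.2% of all genes, and with DESeq2 and its size factors 198 and 57, against 20.7% and 24.2%. Of the members called, 88.8% were higher in the first fit, 80.7% with TMM and 77.6% with DESeq2. With 1 library left out, a clone has a lone library and nothing is read from counts of calls. The members' median log2 fold change exceeded that of reference genes by 0.64 with all 4 libraries. Without replicate 1 or replicate 2 of Abl.2 this difference was 0.62 or 0.65. Without replicate 1 or replicate 2 of Abl.1 it was 0.57 or 0.66. In bulk RNA more copies of a gene and more RNA per copy cannot be told apart from these counts. When members were split into 3 groups of 142, 142 and 143 by their change in total counts, the median total was 0.700-fold, 1.56-fold and 2.79-fold, whereas the median AI in Abl.2 was 0.346, 0.338 and 0.332. Over the 427 members, Spearman's rho between the change in total counts and the change in allele odds was 0.06. Both are computed from the same counts of the same libraries. The allele ratio thus differed little between members whose totals were very different.

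The change of each gene's allele ratio was measured as the log2 odds ratio of paternal to maternal counts, Abl.2 against Abl.1, for which 0 means no change and 1 a doubling of the paternal allele relative to the maternal one. Its 95% interval was widened by the QCC. The median was 0.97 over the members (interquartile range 0.71 to 1.27) and -0.01 over the reference autosomes (interquartile range -0.32 to 0.26). The interval held 1 in 289 of 427 members (67.7%), and in 231 of these it did not hold 0. With a QCC of 1, which leaves the intervals unwidened, it held 1 in 151 (35.4%), and the AI of Abl.2 by itself had an interval that held 0.333 in 196 (45.9%). In the reference autosomes the interval held 0 in 3732 of 5280 genes (70.7%) and 1 in 21.6%. The odds ratio lay within 0.25 of 1 in 45.9% of members and within 0.25 of 0 in 44.7% of reference genes. Single genes were thus spread around the 2:1 ratio on chromosome 10 about as widely as around the 1:1 ratio on the reference autosomes.

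Of the other members, 71 (16.6% of all members) had an interval above 1 and 30 (7.03%) lay between 0 and 1. A further 22 (5.15%) held 0 and not 1, and 15 (3.51%) lay below 0, the opposite direction. In the reference autosomes, whose median was near 0, the same classes held 2.46%, 5.93%, 54.4% and 15.6% of genes. The second run placed 373 of 427 members in the same class, including 63 of the 71 above 1 and 14 of the 15 below 0. When each library was left out in turn, 34 of the 71 and 9 of the 15 kept their class every time. Intervals held 1 less often at higher depth, from 77.5% in the 142 members with the fewest counts, where the median standard error was 0.52, to 53.1% in the 143 with the most, where it was 0.12. The median odds ratio of these groups was 0.94 and 0.99.

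**Figure D4:**
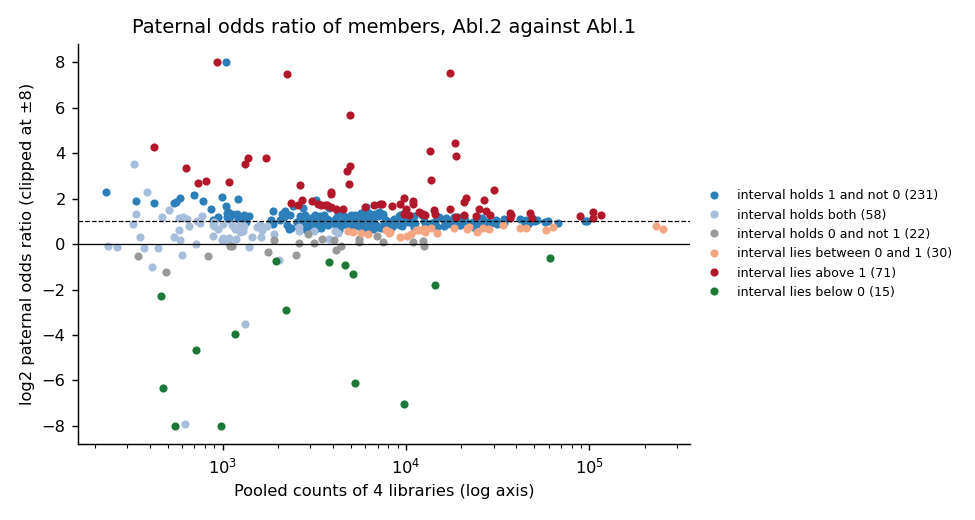
Log2 paternal odds ratio (vertical axis, clipped at 8 in either direction) against pooled counts of the 4 libraries (horizontal log axis) for each member, coloured by where its 95% interval lies. The dashed line marks 1, the 2:1 ratio, and the solid line 0, no change. The intervals of 231 members hold 1 and not 0, and those of 15 lie below 0. Members spread more widely at low counts. Their interquartile range is 0.32 to 1.35 in the 142 with the fewest counts and 0.82 to 1.24 in the 143 with the most.

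Each list named below holds chromosome 10 genes of 1 function, and its count of calls stands beside the 50.8% of all members called for AI. The AI test called 10 of 16 members for the cell cycle, 4 of 10 for p53 and stress, 11 of 16 for lymphoid factors, 5 of 10 for innate signalling, 5 of 12 for chromatin, 9 of 15 for RNA processing, 12 of 16 for translation, 9 of 16 for mitochondria and 9 of 13 for the endosome. Every member called in these lists had the lower AI in Abl.2. In total abundance, where 57.8% of all members were called higher and 7.26% lower, 11 members of the cell cycle list were called higher and 1 lower, 8 and 0 for p53 and stress, 11 and 1 for lymphoid factors, 8 and 0 for innate signalling, and 8 and 0 for chromatin. The counts were 10 and 1 for RNA processing, 6 and 1 for translation, 6 and 4 for mitochondria and 7 and 0 for the endosome.

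Members of the cell cycle and DNA replication list all had the lower AI in Abl.2, 16 of 16, and 10 intervals held 1, 3 lay above it and 3 lay between 0 and 1. Cdk1, the kinase that drives entry into mitosis, had 5527 maternal and 5840 paternal counts in the first Abl.1 library and 5581 and 5957 in the second, against 4163 and 9254, and 4720 and 10437, in Abl.2. Its AI was 0.486 and 0.484 in Abl.1 and 0.310 and 0.311 in Abl.2, with the libraries of the clones apart and an odds ratio of 1.06 (interval 0.94 to 1.19). Anapc16, a subunit of the anaphase-promoting complex, had AI 0.404 and 0.390 in Abl.1 and 0.286 and 0.281 in Abl.2, with an odds ratio of 0.74 (0.61 to 0.86). Timeless, a protein of the replication fork, stood higher at 1.95 (1.78 to 2.13), from AI 0.615 and 0.646 to 0.322 and 0.294. All 3 genes had AI values that did not overlap between clones, and only for Cdk1 did the interval hold 1.

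In the list of p53, apoptosis and stress response genes, AI was lower in Abl.2 in 10 of 10 members, and 5 intervals held 1. Ddit4, an inhibitor of mTORC1 induced by stress, had the widest difference in total counts of those named, with 645 pooled counts in Abl.1 and 8639 in Abl.2. Its paternal counts were 15.9-fold and its maternal counts 4.55-fold higher, and its odds ratio was 1.78 (1.19 to 2.37). Ccar1, a regulator of the cell cycle and apoptosis, had AI 0.448 and 0.484 in Abl.1 and 0.330 and 0.342 in Abl.2, and its odds ratio was 0.79 (0.53 to 1.05). Cradd, an adaptor with a death domain, had AI 0.552 and 0.601 against 0.318 and 0.268, and an odds ratio of 1.72 (1.34 to 2.09). In the list 2 intervals held 0 and not 1, those of Map3k5, with pooled AI 0.374 and 0.342, and Apaf1, the core of the apoptosome, with 0.390 and 0.361, both named after their values were seen.

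The lymphoid transcription factors and signalling list held 16 members. AI was lower in Abl.2 in 13, and 7 intervals held 1, 5 lay above it, 2 lay between 0 and 1 and 2 held 0 and not 1. Vpreb3 had the most counts of all members, 128948 in Abl.1 and 121946 in Abl.2. Its AI was 0.408 and 0.398 in Abl.1 and 0.304 and 0.296 in Abl.2, so that the clones were apart, but its odds ratio of 0.66 (0.60 to 0.71) fell short of 1. Socs2, an inhibitor of cytokine signalling, had AI 0.382 and 0.423 against 0.197 and 0.207 (odds ratio 1.42, interval 1.32 to 1.52). Srgn, the proteoglycan serglycin of secretory granules, had AI 0.496 and 0.521 against 0.345 and 0.332. Its odds ratio of 1.02 (0.88 to 1.16) held 1, while both alleles were higher in Abl.2, 1.82-fold for maternal and 3.69-fold for paternal counts.

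The lymphoid genes Myb, Tcf3 and Fyn, named after their values were seen, show how far single members lay apart. Myb had 100 maternal and 8 paternal counts, and 291 and 34, in the Abl.1 libraries, but 183 and 288, and 193 and 267, in Abl.2, so that AI went from 0.903 to 0.404 with pooled counts. Tcf3, which encodes the E2A proteins, went from 0.636 and 0.623 to 0.366 and 0.371. Fyn, a Src family kinase, had AI 0.324 and 0.329 in Abl.1 and 0.357 and 0.319 in Abl.2, which overlapped, and an odds ratio of -0.08 with an interval that held 0 and not 1. Fyn already had 2 paternal counts to each maternal count in Abl.1, and its maternal and paternal counts were 2.19-fold and 2.09-fold higher in Abl.2.

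In the NF-kB, interferon and innate signalling list, 8 of 10 members had the lower AI in Abl.2 and 5 intervals held 1. Mif, a cytokine that recruits immune cells, had AI 0.498 and 0.505 against 0.399 and 0.397, and an odds ratio of 0.60 (0.49 to 0.71). Tab2, an adaptor of the TAK1 kinase, had AI 0.501 and 0.502 against 0.305 and 0.294, and its odds ratio of 1.24 (0.91 to 1.57) held 1. Ifngr1, the ligand-binding chain of the interferon gamma receptor, was the farthest from 1 in the list. Its paternal counts were 185 and 178 in the Abl.1 libraries and 4999 and 5640 in Abl.2, a 20.9-fold difference, while its maternal counts of 1263 and 1960 against 2130 and 2183 gave 1.01-fold after scaling. The shift of its AI from 0.872 and 0.917 to 0.299 and 0.279 therefore lay on the paternal allele.

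Of the chromatin and DNA methylation list, 10 of 12 members had the lower AI in Abl.2 and 9 intervals held 1. Smarcb1, a core subunit of the SWI/SNF remodelling complex, had AI 0.518 and 0.484 against 0.342 and 0.360. Mbd3, a subunit of the NuRD complex, had 0.454 and 0.460 against 0.312 and 0.310, and Yeats4, a reader of acetylated histones, 0.501 and 0.455 against 0.329 and 0.319. Their odds ratios of 0.88, 0.90 and 0.94 all had intervals that held 1. For RNA processing, AI was lower in 15 of 15 members and 11 intervals held 1. Polr2e, a subunit shared by the RNA polymerases, had an odds ratio of 1.00 (0.87 to 1.13) from AI 0.446 and 0.461 against 0.293 in both Abl.2 libraries. Sf3b5, of the SF3B splicing complex, stood at 0.69 (0.56 to 0.83) and the RNA helicase Ddx21 at 1.28 (1.10 to 1.45).

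Genes of translation, mitochondria and the endosome kept close to the same odds ratio although their totals differed less from Abl.1 than those of other lists. The median odds ratio was 0.95 over 16 members for translation and protein folding, 1.00 over 16 for mitochondria and energy metabolism and 0.99 over 13 for endosome, lysosome and membrane traffic, with 12, 9 and 8 intervals that held 1. The median log2 total ratios of these lists were -0.10, -0.38 and 0.20, against 0.66 over all members. Eef2, the elongation factor that moves the ribosome along, had 82342 and 147773 pooled counts, AI 0.468 and 0.5 against 0.349 and 0.358, and an odds ratio of 0.81 (0.75 to 0.87). Rps12, of the small ribosomal subunit, had AI 0.486 and 0.490 against 0.329 and 0.324 (0.98, interval 0.86 to 1.09), and Gtf3c6, of the RNA polymerase III factor TFIIIC, 0.446 and 0.440 against 0.243 and 0.293 (1.12, interval 0.97 to 1.28).

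Among the mitochondrial genes, Shmt2, the mitochondrial serine hydroxymethyltransferase, had AI 0.522 and 0.510 against 0.347 and 0.345 and an odds ratio of 1.00 (0.90 to 1.10), with 2.83-fold paternal and 1.41-fold maternal counts. Atp5b, the beta subunit of ATP synthase, had 0.494 and 0.510 against 0.349 and 0.346 (0.92, interval 0.82 to 1.03) with 0.951-fold paternal and 0.503-fold maternal counts. Both alleles were above the reference in Shmt2, whereas in Atp5b the maternal level was below it and the paternal level near it. Chchd10, a small protein of the intermembrane space, had AI 0.628 and 0.632 against 0.415 in both Abl.2 libraries (1.26, interval 1.18 to 1.34). Mcu, the pore of the mitochondrial calcium uniporter, went the other way, from 0.398 and 0.473 to 0.532 and 0.589, and was named after its values were seen. Of the endosome list, Psap, the precursor of the saposins, held 1 at 0.99 (0.90 to 1.08), as did Sar1a, a GTPase of vesicle budding, at 1.11 (0.97 to 1.25). Cstb, a cysteine protease inhibitor, stood at 1.22 (1.13 to 1.32).

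Among members with at least 500 pooled counts in each clone, the 6 with the highest odds ratios whose interval did not hold 1 were Prmt2, Chst11, Ifngr1, Aes, Lyz2 and Slc29a3. Prmt2, a protein arginine methyltransferase (chr10:76207222-76237865), had 5 and 12 paternal counts beside 238 and 491 maternal counts in Abl.1, and 592 and 614 beside 121 and 158 in Abl.2. Its AI of 0.979 and 0.976 in Abl.1 and 0.170 and 0.205 in Abl.2 gave the highest odds ratio of the 6, 7.49 (5.70 to 9.28). Chst11, a chondroitin sulfotransferase, changed on the other allele, with 994 and 1592 maternal counts in Abl.1 and 41 and 61 in Abl.2, while its paternal counts were 1.52-fold. In Aes, a corepressor of the Groucho family, maternal counts were 1747 and 2148 in Abl.1 and 55 and 70 in Abl.2. Lyz2, the lysozyme of myeloid cells whose promoter is printed above, had AI 0.210 and 0.231 against 0.018 and 0.020. Slc29a3, a nucleoside transporter of the lysosome, had 0.466 and 0.540 against 0.165 and 0.042, with the widest gap between Abl.2 libraries of the 6.

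Under the same limits, the 6 with the lowest odds ratios were D10Jhu81e, Tjp3, Plpp2, Agpat3, Palm and Stx7. In these the maternal share was higher in Abl.2. D10Jhu81e (chr10:78162066-78169782) had 1363 and 2161 paternal counts in Abl.1 and 6 and 16 in Abl.2, beside 1464 and 1367 maternal counts, so that AI went from 0.488 and 0.490 to 0.996 and 0.988. Tjp3, a tight junction protein, went from 0.328 and 0.397 to 0.827 and 0.811. Plpp2, a lipid phosphate phosphatase, had 0.445 and 0.435 against 0.742 and 0.719, with both alleles lower in Abl.2, 0.279-fold for maternal and 0.082-fold for paternal counts. Agpat3, an acyltransferase of phospholipid synthesis, had 0.474 and 0.548 against 0.704 and 0.745, with 1.31-fold maternal and 0.524-fold paternal counts. The paternal allele of all 6 was lower in Abl.2, with Palm, a lipid-anchored membrane protein, at 0.279-fold and Stx7, a syntaxin of late endosomes, at 0.525-fold.

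**Figure D5:**
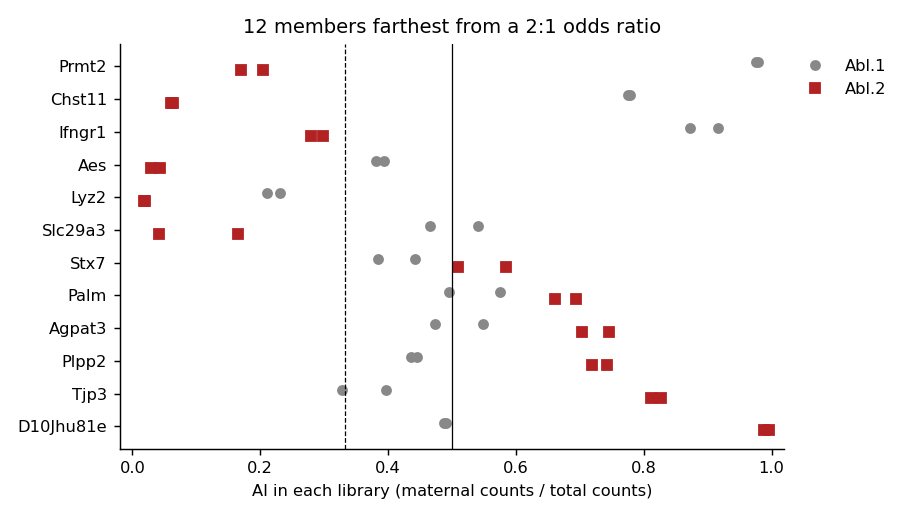
AI of each library (horizontal axis) for 12 members, with Abl.1 libraries as grey circles and Abl.2 libraries as red squares. They are the 6 highest and 6 lowest odds ratios among members with at least 500 counts in each clone whose interval did not hold 1. The solid line marks 0.5 and the dashed line 0.333. In each gene the libraries of the clones do not overlap, and the upper 6 genes move to the left in Abl.2 and the lower 6 to the right.

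Some members were read almost wholly from 1 allele. AI was at or below 0.1 in 8 members in Abl.1 and 14 in Abl.2, and at or above 0.9 in 6 and 5. Of the members, 5 were beyond these limits on the same side in both clones, 1 on opposite sides, 8 in Abl.1 only and 13 in Abl.2 only. As a share of genes, the last 2 counts were 1.87% and 3.04% of members, against 1.57% and 3.28% of reference autosome genes. Aig1, a hydrolase of fatty acid esters, was the member on opposite sides. It had 0 maternal counts among 419 in Abl.1, which allows a maternal share of up to 0.716%, and AI 0.986 and 1 in the Abl.2 libraries. Nhsl1 had AI 0.633 and 0.556 in Abl.1 and no maternal count among 508 in Abl.2, which allows up to 0.591%. Esr1, the estrogen receptor alpha, had AI 0.279 and 0.292 in Abl.1 and no paternal count among 116 in Abl.2, which allows up to 2.59%. Syt1 and 1500009L16Rik, at 0.996 or more in each clone, and Lyz1, at 0.00741 and 0.00467, kept to 1 allele in both, as did Gm8394 and L3mbtl3. These limits cover counting error only, and reads over several SNPs were counted at each.

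Near the minimum of 100 counts, Rpl6l had 135 pooled counts in Abl.1 and 100 in Abl.2 with AI 0.259 and 0.270, and 4930404N11Rik had 102 and 269 with 0.324 and 0.349. Just below it, Zbtb39 had 96 and 291 counts with AI 0.333 and 0.399, and Bbs10 92 and 271 counts with 0.163 and 0.129. The intervals of both members held 0 and 1. Reads of Rpl6l, Amd1, Amd2, Lyz1 and Lyz2, which have near-identical copies, may have been placed on the wrong copy, and their values are uncertain.

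In kidney the members had AI near 0.5, in a tissue that was not used to choose them. The median AI of members per library was 0.510 ± 0.00438 (SD, n = 6) with NEBNext 100 ng, 0.507 ± 0.00511 (SD, n = 6) with SMARTseq 10 ng and 0.504 ± 0.00556 (SD, n = 6) with SMARTseq 100 pg. In the SMARTseq 10 ng set 374 members had at least 10 counts in each library. Their pooled AI had a median of 0.509 (interquartile range 0.473 to 0.546), against 0.502 over 10290 other autosomal genes. The proportional test against 0.5, with QCC and Bonferroni adjustment, called 76 of the 374 members (20.3%), 50 above and 26 below 0.5. Over all 10739 genes tested, 24.4% were called. Of the 76, 25 were also called in both other kidney sets, and 53 had an Abl.1 AI on the same side of 0.5. No share of other genes stands beside the counts of 25 and 53, and nothing is read from them.

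The 4 called members farthest from 0.5 in the SMARTseq 10 ng kidney set were Lsm7, Lyz1, Oaz1 and Amd1. Lsm7, a subunit of the ring that binds U6 RNA, had 0 maternal counts of 2645 in this set, which allows up to 0.113%. Its AI was 0.441 and 0.456 in Abl.1 and 0.320 and 0.342 in Abl.2. Oaz1, the antizyme that limits polyamine synthesis, had AI from 0.960 to 0.971 over the 6 SMARTseq 10 ng libraries, with a median of 0.965. In NEBNext 100 ng it ranged from 0.912 to 0.977, and in SMARTseq 100 pg from 0.954 to 0.974. In the clones its AI was 0.541 and 0.514 in Abl.1 and 0.383 and 0.366 in Abl.2. Amd1, which makes the aminopropyl donor of polyamines, had AI from 0.848 to 0.929 in the SMARTseq 10 ng set, with a median of 0.901. In NEBNext 100 ng it ranged from 0.64 to 0.940 (median 0.746), and in SMARTseq 100 pg from 0.769 to 0.929. With pooled counts its AI was 0.636 in Abl.1 and 0.491 in Abl.2. Lyz1 had a median of 0 and a highest value of 0.0455 in kidney and lay at the same end in both clones. Lsm7 and Oaz1 thus had very unequal counts in kidney and near-equal counts in Abl.1.

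The column names need a caution where kidney and clones are set side by side. Of 10 imprinted genes with at least 50 pooled kidney counts, all 10 lay on the side opposite to the one that the names maternal and paternal imply, 8 of them beyond an AI of 0.2 or 0.8. In the Abl libraries all 5 imprinted genes with at least 10 counts lay on the named side, led by Impact with 17 counts in the maternal and 683 in the paternal column. The others had few counts, with 22 and 0 for Cdkn1c, 14 and 1 for Grb10 and 2 and 12 for Mest. Slc22a18, with 12 and 9, was near even. Across 4577 genes of the reference autosomes, kidney AI and Abl.1 AI had a Spearman's rho of 0.31, and across 374 members 0.33, both positive. These genes share annotation, SNPs and mapping between tables. The names maternal and paternal are those of the columns, and which parent carried which strain in the kidney mouse was not tested.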

How the data were processed

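Poly-A RNA-seq of Abl.1 and Abl.2 (2 libraries each, Abl.2 in 2 runs) and of kidney (18 libraries) was used. The authors aligned reads to 129S1 and Cast/Ei pseudogenomes of GRCm38 with STAR (2.5.4a per the labels), kept unique reads, counted alleles at SNPs over exons without regions shared by genes, and deposited whole-number counts per gene, allele and library. The deposited AI tables hold fractions pooled by the authors and were not used.

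Members and gene lists were chosen with earlier results of these data known, and the reference autosomes (all but 4, 5, 7, 10, 11 and 18) likewise. QCC was computed per pair of libraries from autosomal genes (coverage bins of base 1.05, at least 40 genes, minimum coverage 50), after drawing down libraries that differed by more than 5% in total, and was 2.54 for Abl.1, 2.19 for Abl.2 and 1.47 for kidney SMARTseq 10 ng. AI was tested with proportional tests on counts divided by the square of QCC with Bonferroni adjustment at 0.05, and totals with edgeR 4.0.16 (DESeq2 1.42.0 as alternative, Benjamini-Hochberg adjustment), in genes with at least 10 counts in each library. To odds ratios 0.5 was added per count, and 0.5 to counts per 1000000 before log2. All scripts were tested on simulated data.

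The genes named were the 3 members with most counts per list and of all lists, the 6 lowest and 6 highest odds ratios with at least 500 counts per clone, 2 on either side of 100 counts and the 4 farthest from 0.5 in kidney. Other genes named were chosen after their values were seen.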

Additional observations from a re-analysis of the deposited data

Results flagged for a closer look

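Of 15 groups of 6 kidney libraries examined for a single library far from the others (the median AI of members in 3 sets and the AI of 4 named genes in each set), 2 had one. In 4 of these groups all 6 libraries had the same AI. Where values vary freely chance gives about 1 in 20, a rate that does not hold for the few maternal counts here. Both were Lyz1, a lysozyme gene with a near-identical copy, Lyz2, beside it. In the NEBNext 100 ng set, replicate 4 had an AI of 0.0357, from 1 maternal count of 28, and the other 5 libraries had 0. In the SMARTseq 10 ng set, replicate 3 had an AI of 0.0455, from 3 maternal counts of 66, and the others had 1 maternal count or none.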

How the results depend on the processing

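The direction of the median paternal shift and of the median odds ratio held under every alternative run. With a QCC of 1, 359 members were called for AI (343 lower in Abl.2), against 38.4% of all genes tested. At this QCC 151 intervals held 1. The AI of Abl.2 set against 0.333 in place of the odds ratio held it in 196 members. Members lower in total abundance numbered 47 with TMM and 57 with DESeq2, against 21.2% and 24.2% of all genes. In kidney, 139 members were called with Benjamini-Hochberg adjustment and 33 in the SMARTseq 100 pg set. No share of all genes stands beside these kidney counts, and nothing is read from them. The maternal median was 0.0740 with DESeq2 size factors and 0.0715 in the second run of Abl.2, and the total median was 0.60 in that run. Leaving out 1 library at a time, between 149 and 192 members were called for AI, between 162 and 309 were higher in total and between 9 and 56 lower. The lowest counts for totals came without Abl.2 replicate 1 (164 and 11) or replicate 2 (162 and 9) and the highest without Abl.1 replicate 2, where the lone library is assumed to vary like the other clone. In each of these settings a clone has a lone library, and nothing is read from these counts of calls. Over all genes, too, fewer were called for totals without an Abl.2 library than without an Abl.1 library. The members' median log2 fold change in totals exceeded that of reference genes by between 0.57 and 0.66 in these settings. Over the same settings the paternal median lay between 0.97 and 1.07, the maternal between 0.0349 and 0.0795 and the total between 0.60 and 0.67. Of 308 odds ratios of the 44 named members under these alternatives, 299 kept their sign. The other 9 were those of 4930404N11Rik, Rpl6l and Lyz1, whose intervals held 0. Among named members whose interval did not hold 0, only Amd1 without Abl.1 replicate 2 (0.58) came to hold it. The cause of these changes was not tested.

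The edgeR fit of AI called 300 members without and 281 with a replicate block, against 26.4% and 24.8% of all genes. For totals, 247 and 31 were called higher and lower without it, against 32.2% and 13.6% of all genes. With it, 263 and 32 were called, against 37.3% and 15.5%. Library numbers of the 2 clones mark separate preparations, so same-numbered libraries were not taken as pairs. Their deviations correlated at 0.09 for totals and -0.00425 for AI over members. Over all genes tested the correlations were 0.15 for totals and 0.00801 for AI. Depth limits the intervals of members with few counts, in which 0 and 1 were often both held.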
